A study of Mus musculus with 9 samples.

Results

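The genes described here are 10 genes of the NRF2 antioxidant response (Nfe2l2, Keap1, Gclc, Gclm, Nqo1, Txnrd1, Srxn1, Slc7a11, Gsr and Sqstm1), found by gene name among the 19769 genes of an RNA-seq table of mouse embryonic fibroblasts (MEFs). All 10 were in the table. The table compares low-MYC with high-MYC cells, 2 libraries each. The MEFs are primary fibroblasts, within 3 passages, from Myc-Egfp+/+ mice, which carry MYC fused to GFP at both copies of the endogenous Myc gene. Both groups were treated with MG-132, a proteasome inhibitor, at 20 µM for 6 h, then sorted for low or high GFP and seeded overnight before RNA was taken, and no RNA library without MG-132 was analysed here. The 2 libraries of a group are technical replicates, so the p-values below measure the spread between libraries and not between cultures or animals. The series also holds 4 samples of TACh-seq, which maps chromatin open to nuclease digestion, and 1 ChIP-seq sample of the DNA-binding protein FUBP1. The TACh-seq samples are labelled wild type or kokd, 2 each, and kokd stands for Fubp1 knockout cells given Fubp2 siRNA.

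NRF2, the product of Nfe2l2, is a transcription factor that cells hold at a low level by destroying it. KEAP1 binds NRF2 and hands it to a ubiquitin ligase built on CUL3, which marks it for the proteasome. Oxidants and electrophiles modify KEAP1, newly made NRF2 then escapes, pairs with a small MAF protein and binds antioxidant response elements near genes for glutathione synthesis, thioredoxin recycling and quinone detoxification. BACH1 competes for the same elements. p62, the product of Sqstm1, is an autophagy receptor that can capture KEAP1, and Sqstm1 is itself a known NRF2 target.

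The core of the antioxidant response element, TGACNNNGC, was searched on both strands of the RefSeq promoters of GRCm38.p6, which run from 250 bases before each start site to 50 after it. Of the 10 genes, 8 were in that table, and 4 of these 8 held a match, against 13.99% of all genes in the table. A match was found in 12.4% of all 32851 promoters and in 14.3% of those of expressed coding genes. These stretches are shown because they carry the only letters of the searched element in the promoter windows of these 8 members, with the element in capitals. The first pair is the 250 bases before the start of Nfe2l2, at chr2:75704664-75704913 on the minus strand, and of Gclm, at chr3:122245307-122245556 on the plus strand.
Nfe2l2: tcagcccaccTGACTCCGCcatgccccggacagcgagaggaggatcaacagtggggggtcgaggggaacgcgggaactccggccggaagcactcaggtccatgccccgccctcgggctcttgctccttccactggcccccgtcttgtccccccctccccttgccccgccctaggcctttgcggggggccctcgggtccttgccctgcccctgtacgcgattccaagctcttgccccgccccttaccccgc
Gclm: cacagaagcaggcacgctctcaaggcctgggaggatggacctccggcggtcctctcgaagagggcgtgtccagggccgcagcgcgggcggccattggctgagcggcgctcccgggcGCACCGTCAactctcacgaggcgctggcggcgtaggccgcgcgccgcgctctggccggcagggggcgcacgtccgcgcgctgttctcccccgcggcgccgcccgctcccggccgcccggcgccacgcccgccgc
The second pair shows 10 bases on each side of the element, for Srxn1 at chr2:152105542-152105570 and for Txnrd1 at chr10:82859104-82859132, both on the plus strand.
Srxn1: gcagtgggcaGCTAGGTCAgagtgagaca
Txnrd1: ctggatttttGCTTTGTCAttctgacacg
Counting the first transcribed base as 1 and the base before it as -1, the element began at base -240 of Nfe2l2, -134 of Gclm, -92 of the second annotated start of Txnrd1 and 29 of Srxn1. In Nfe2l2 the element read in the direction of the gene, and in Gclm, Txnrd1 and Srxn1 it read in the opposite direction. A match is a description of these letters and says nothing about binding.

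A pair of scales was used for every gene. The first is the deposited spike-in-normalized FPK (fragments per kilobase divided by a score from ERCC transcripts, synthetic RNAs added in proportion to cell count), which sets an mRNA against the number of cells. The second is the share of a library, in parts-per-million (ppm) of its FPK total, which sets an mRNA against the other mRNA of the same cells. FPK totals were 46321 and 48291 in the low-MYC libraries and 102853 and 109090 in the high-MYC libraries, from an estimated 87700000 to 96300000 reads. Myc itself was higher by 1.04 on the log2 spike-in scale (SE 0.0388, adjusted p = 1.04e-05 from limma) and differed by -0.11 on the log2 share scale (adjusted p = 0.154). Of 12 fibroblast markers all were detected in every library. Their summed share was 8678.5 and 8468 ppm in the low-MYC libraries and 9533 and 9257 ppm in the high-MYC libraries. Of the 12, 8 were higher in share in both high-MYC libraries than in either low-MYC library. The summed share of 15 macrophage markers was 13.6 and 18.1 ppm in the low-MYC libraries and 276 and 273 ppm in the high-MYC libraries, all 15 were higher in both high-MYC libraries, and Adgre1, C1qa and Tyrobp were at 0 in a low-MYC library. The part of these cells in the members' values was not tested. In bulk RNA, fewer cells of a type and less RNA per cell cannot be told apart.

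All 10 members were higher per cell in both high-MYC libraries than in either low-MYC library, between 1.36 and 2.73 times the low-MYC mean. That is where nearly every gene lay: 97.1% of all tested genes were called higher at an adjusted p under 0.01 at any fold, and so were 9 of the 9 members that passed the filter on low values. Within that rise the members split. The regulators Nfe2l2 and Keap1 and the target Nqo1 rose by more than the median gene, and Sqstm1, Srxn1, Slc7a11, Txnrd1, Gclm, Gclc and Gsr were higher by less. As shares of the library, Sqstm1, Srxn1, Txnrd1 and Gclm fell.

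**Figure D1:**
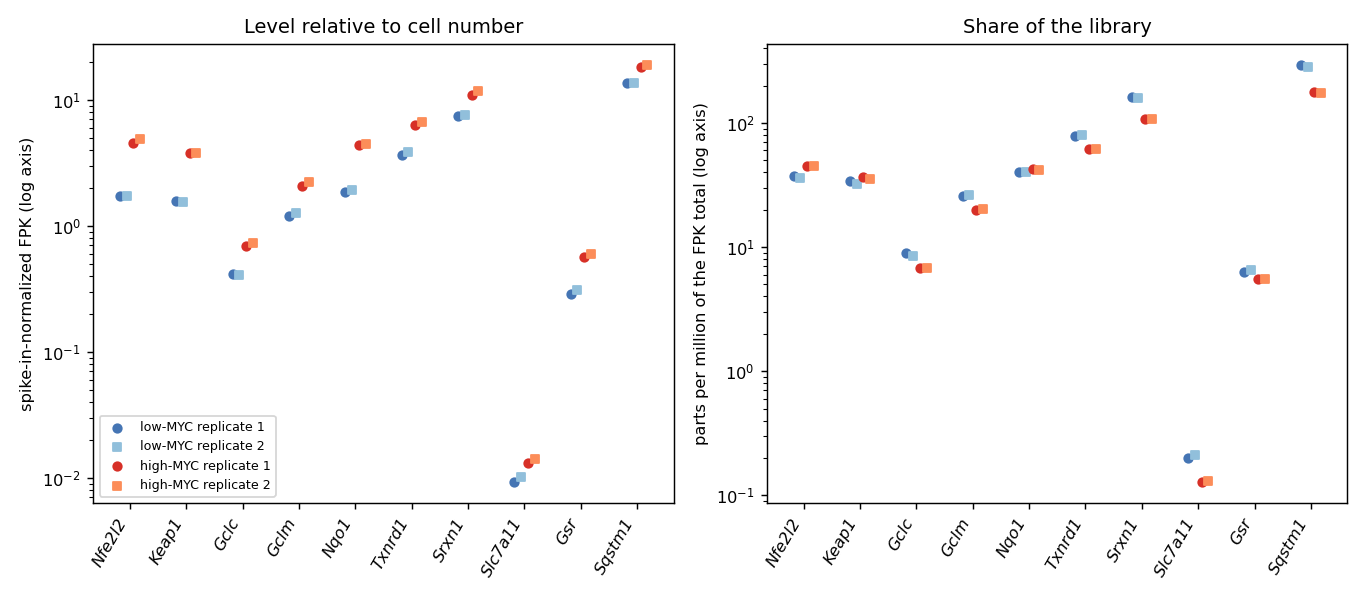
Values of the 10 members in each of the 4 libraries, as spike-in-normalized FPK (left, log axis) and as ppm of the library's FPK total (right, log axis). Blue points are low-MYC and red or orange points high-MYC libraries, 1 point per library. Every red or orange pair sits above its blue pair on the left, and on the right the pairs of 7 members sit below. Of all 11870 tested genes, 47.0% had a log2 fold change below 0 on the share scale. How many of them had separate pairs was not counted, so the 7 are a description only.

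Nfe2l2 (mm10, chr2:75675513-75704641, minus strand) measured 1.73 and 1.73 FPK in the low-MYC libraries and 4.58 and 4.88 FPK in the high-MYC libraries. The high-MYC mean was 2.73 times the low-MYC mean, the highest ratio of the 10, and the groups did not overlap. On the log2 spike-in scale the difference was 1.40 (SE 0.0495, adjusted p = 1.04e-05 from limma), above 96.1% of all tested genes. As a share, Nfe2l2 took 37.3 and 35.9 ppm in low-MYC and 44.5 and 44.8 ppm in high-MYC cells. This difference of 0.28 on the log2 share scale did not pass the threshold of 0.01 (SE 0.0334, adjusted p = 0.0193 from limma). With reads divided by exon length in place of gene span, it was 0.27 and passed (adjusted p = 0.00262).

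Keap1 (chr9:21229730-21239361, minus strand), the adaptor that holds NRF2 low, measured 1.58 and 1.54 FPK against 3.79 and 3.82 FPK. It was 1.23 higher on the log2 spike-in scale (SE 0.0424, adjusted p = 1.04e-05 from limma). Its shares, 34.1 and 32.0 ppm in low-MYC and 36.9 and 35.0 ppm in high-MYC cells, differed by 0.12 on the log2 share scale and did not pass the test (SE 0.0491, adjusted p = 0.195 from limma). Per length of exon, the level of Nfe2l2 was 4.09 and 4.199 times that of Keap1 in the low-MYC libraries and 4.51 and 4.78 times in the high-MYC libraries, so the ratio of factor to inhibitor mRNA was higher in both high-MYC libraries. That ratio was given no test, and its size also depends on which exons are annotated.

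Sqstm1 (chr11:50199366-50210827, minus strand), the gene of p62, had the highest level per exon length of the 10 members and the lowest ratio of group means on the spike-in scale (1.36). It measured 13.6 and 13.7 FPK in the low-MYC libraries against 18.1 and 18.99 FPK in the high-MYC libraries. The difference on the log2 spike-in scale was 0.44 (SE 0.0440, adjusted p = 0.000166 from limma), below all but 1.57% of tested genes. Its share went from 293 and 284 ppm to 176 and 174 ppm, which is 0.607 times the low-MYC share. The fall of 0.72 on the log2 share scale was the largest of the 9 members that passed the filter (SE 0.0316, adjusted p = 0.00305 from limma), and all but 0.295% of tested genes had a higher value. Sqstm1 overlaps Mrnip on the opposite strand, and whether the counting used strand is not stated.

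Srxn1 (chr2:152105516-152111376, plus strand), sulfiredoxin, which repairs over-oxidized peroxiredoxins, measured 7.45 and 7.63 FPK in low-MYC and 10.98 and 11.73 FPK in high-MYC cells. It stood 0.58 higher on the log2 spike-in scale (SE 0.0495, adjusted p = 7.97e-05 from limma). Its share, 161 and 158 ppm in low-MYC cells, was 107 ppm in both high-MYC libraries. Srxn1 fell by 0.57 on the log2 share scale (SE 0.0280, adjusted p = 0.00385 from limma), the second largest fall of the 9 members that passed the filter.

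Txnrd1 (chr10:82833951-82897712, plus strand), cytosolic thioredoxin reductase, rebuilds reduced thioredoxin with NADPH. It measured 3.65 and 3.85 FPK in low-MYC and 6.30 and 6.66 FPK in high-MYC cells, 0.77 higher on the log2 spike-in scale (SE 0.0515, adjusted p = 3.04e-05 from limma). Its share was 78.9 and 79.7 ppm in low-MYC and 61.3 and 61.1 ppm in high-MYC cells, a fall of 0.37 on the log2 share scale (SE 0.0273, adjusted p = 0.00792 from limma). The groups did not overlap on either scale. Txnrd1 overlaps 3 genes, among them Eid3 on the same strand.

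The subunits of glutamate-cysteine ligase, the rate-limiting enzyme of glutathione synthesis, had the same ratio between the groups. The catalytic subunit gene Gclc (chr9:77754535-77794485, plus strand) measured 0.416 and 0.412 FPK against 0.695 and 0.738 FPK. The modifier subunit gene Gclm (chr3:122245557-122270732, plus strand) measured 1.20 and 1.27 FPK against 2.06 and 2.22 FPK. Both high-MYC means were 1.73 times the low-MYC mean. Per length of exon, Gclm stood at 1.09 and 1.16 times Gclc in low-MYC and at 1.12 and 1.13 times in high-MYC cells, and these ratios overlapped. The share of Gclm was 26.0 and 26.2 ppm in low-MYC and 20.0 and 20.3 ppm in high-MYC cells, a fall of 0.36 on the log2 share scale (SE 0.0295, adjusted p = 0.00953 from limma). The share of Gclc, 8.97 and 8.52 ppm against 6.76 and 6.77 ppm, differed by -0.33 on the log2 share scale (SE 0.0387), which missed the threshold (adjusted p = 0.0190 from limma). By exon length Gclc differed by -0.37 and passed (adjusted p = 0.00163).

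Gsr (chr8:33652523-33698163, plus strand), glutathione reductase, returns oxidized glutathione to its reduced form. It measured 0.291 and 0.313 FPK against 0.563 and 0.598 FPK, 0.76 higher on the log2 spike-in scale (SE 0.0603, adjusted p = 6.00e-05 from limma). Its shares of 6.28 and 6.48 ppm in low-MYC and 5.47 and 5.48 ppm in high-MYC cells differed by -0.19 on the log2 share scale and did not pass (SE 0.0354, adjusted p = 0.0487 from limma). By exon length the difference was -0.23 and passed (adjusted p = 0.00872).

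Slc7a11 (chr3:49892526-50443614, minus strand), the cystine importer xCT, spans 551089 bases, of which its exons take 2.53%. Because the deposited values behave as if divided by this span, its FPK was only 0.00923 and 0.0101 in low-MYC and 0.0131 and 0.0142 in high-MYC cells, below the filter of 0.1, although it held an estimated 708 to 1275 reads per library. It was therefore left out of the fit as deposited. With no filter, where the pseudocounts are far above its FPK, it differed by 0.05 on the log2 spike-in scale (adjusted p = 0.0230 from limma) and by -0.09 on the log2 share scale (adjusted p = 0.0533), and neither passed. As a share of estimated reads it fell by 0.68 on the log2 scale (adjusted p = 7.67e-07 from limma). By exon length it was 0.41 higher on the log2 spike-in scale (SE 0.0959, adjusted p = 0.00328 from limma) and fell by 0.49 on the log2 share scale (SE 0.0674, adjusted p = 0.00516 from limma). Its share of the FPK total was 0.199 and 0.209 ppm against 0.127 and 0.130 ppm, and the groups did not overlap. It overlaps 5 other annotated genes, 2 of them on its own strand.

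Nqo1 (chr8:107388225-107403206, minus strand) is the quinone reductase often used as a readout of NRF2. Among the 10 members, it was the only gene besides the regulators Nfe2l2 and Keap1 whose share was not lower in the high-MYC libraries. This holds for the members only, and some other genes of the pathway given below had a higher share in high-MYC cells. It measured 1.85 and 1.92 FPK against 4.37 and 4.51 FPK, 1.19 higher on the log2 spike-in scale (SE 0.0459, adjusted p = 1.04e-05 from limma). Its shares of 40.0 and 39.8 ppm in low-MYC and 42.5 and 41.3 ppm in high-MYC cells differed by 0.07 on the log2 share scale and did not pass the test (SE 0.0305, adjusted p = 0.214 from limma). Per exon length Nqo1 stood at 1.15 and 1.17 times the level of Srxn1 in low-MYC cells and at 1.85 and 1.79 times in high-MYC cells.

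Counted together, 3 of the 9 tested members (Nfe2l2, Keap1 and Nqo1) were called higher on the spike-in scale at a fold of at least 2 and an adjusted p under 0.01, against 55.1% of all 11870 tested genes. Their median difference was 0.76 on the log2 spike-in scale, where the median of all tested genes was 1.03 and the middle 90% ran from 0.59 to 1.35. Sqstm1 and Srxn1 lay below that range and Nfe2l2 above it. By exon length the middle 90% ran from 0.61 to 1.48, and Nfe2l2 (1.44) lay inside it. Sqstm1 (0.44) and Srxn1 (0.59) lay below it there too. On the share scale 4 of 9 were called lower, against 0.531% of all tested genes, and 0 of 9 were called higher by limma, against 1.78%. At an unadjusted p under 0.05, 6 of the 9 were lower and 1 was higher on the share scale, against 12.9% and 18.7% of all tested genes. The members' median was -0.33 on the log2 share scale and that of all tested genes 0.01, and 5 of the 9 lay below the 5th percentile of -0.23. Because the members were chosen with earlier results of these data known, these contrasts with all tested genes are descriptive and no test of the set.

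The share calls rest on all 4 libraries. Without any 1 of them, or with the replicate number as a block, none of the 4 passed an adjusted p under 0.01, while every tested member kept its direction and these 4 had adjusted p-values of 0.0154 to 0.0754 without a library. Without a library, Sqstm1 ranged from -0.74 to -0.69 on the log2 share scale, Srxn1 from -0.58 to -0.56, Txnrd1 from -0.38 to -0.36 and Gclm from -0.37 to -0.35. By exon length, 7 of the 10 members were called lower on the share scale against 2.67% of 14353 tested genes, and 1 higher (Nfe2l2) against 6.15%. On the spike-in scale by exon length, 10 of 10 were called higher at any fold, against 96.6%. The limit from how the members were chosen holds for these counts too.

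**Figure D2:**
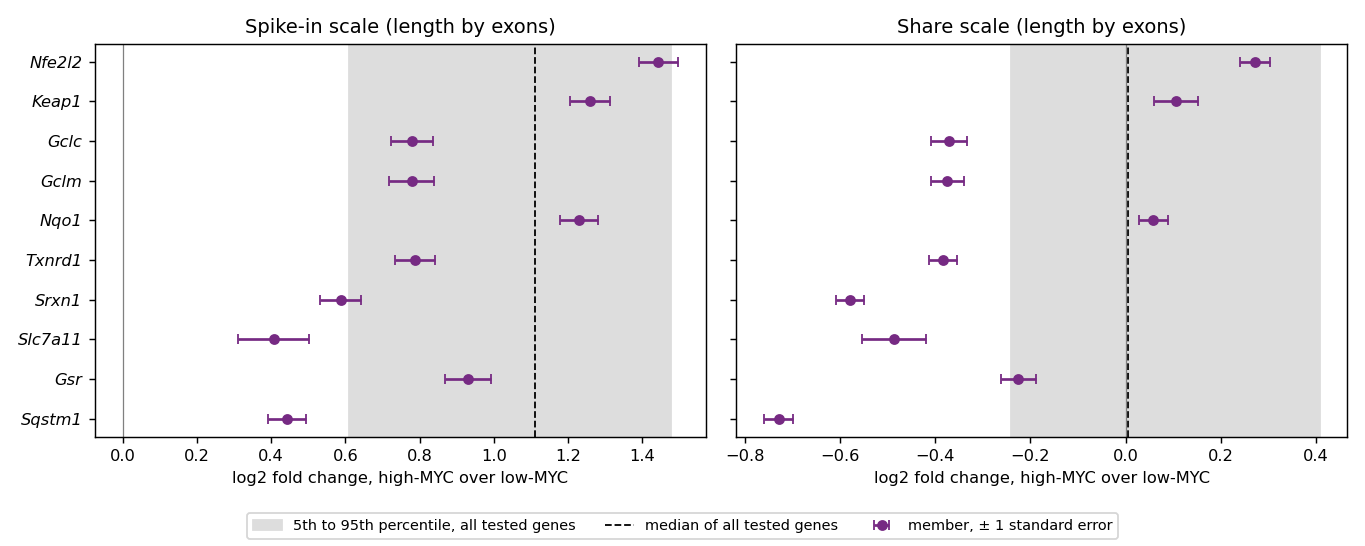
Log2 fold change of high-MYC over low-MYC for the 10 members (x axis), on the spike-in scale (left) and on the share scale (right), with reads divided by exon length so that Slc7a11 is included. Bars are 1 standard error from limma, the grey band holds the middle 90% of the 14353 tested genes and the dashed line is their median. Sqstm1, Srxn1 and Slc7a11 lie left of the band in both panels, and Nfe2l2, Keap1 and Nqo1 lie right of the median in both.

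Levels of different genes were compared per kilobase of exon. The exon length is that of all annotated exons of a gene together and not of the expressed transcript, so this order also depends on the annotation. In low-MYC cells the order was Sqstm1 (mean 46.6 ± 0.266 exon-length FPK, SD, n = 2), Txnrd1 (33.7 ± 1.24), Nqo1 (18.2 ± 0.497), Srxn1 (15.7 ± 0.264), Nfe2l2 (13.3 ± 0.0255), Gsr (5.001 ± 0.258), Gclm (4.95 ± 0.180), Gclc (4.39 ± 0.0290), Keap1 (3.21 ± 0.0537) and Slc7a11 (0.383 ± 0.0243). Gsr and Gclm overlapped and no other neighbours did. In high-MYC cells Sqstm1 (63.4 ± 2.12), Txnrd1 (58.3 ± 2.27) and Nqo1 (42.8 ± 0.952) again led, Nfe2l2 (36.3 ± 1.66) stood above Srxn1 (23.6 ± 1.10), and Gsr (9.62 ± 0.409) and Gclm (8.56 ± 0.454) followed. Keap1 (7.81 ± 0.0359) and Gclc (7.60 ± 0.323) overlapped there, and Slc7a11 (0.540 ± 0.0313) stayed lowest. The Sqstm1 level was 3.50 and 3.52 times that of Nfe2l2 in low-MYC cells and 1.76 and 1.73 times in high-MYC cells.

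Of 54 other genes of the pathway, chosen by role in 6 groups, 48 were tested. On the share scale 2 were called higher and 1 lower, where 1.78% and 0.531% of all tested genes were, and their median was 0.02 on the log2 share scale. Of the 2 called higher, Aldh3a1 passed the filter on low values only through the high-MYC libraries. Beside the counts by group below, 55.1% of all tested genes rose at least 2-fold on the spike-in scale, and 18.7% were higher and 12.9% lower in share at an unadjusted p under 0.05. The 55.1% depends on the pseudocount of 0.1 FPK, since 10076 of 11870 genes rose at least 2-fold with 0.01 FPK. The gene called lower was Hmox1, heme oxygenase, which turns heme into biliverdin and is a target of both NRF2 and BACH1.

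Among the partners and regulators of NRF2, 8 of 11 were tested, 5 of 8 rose at least 2-fold on the spike-in scale, and 0 changed in share by limma (1 higher and 3 lower at an unadjusted p under 0.05). At an adjusted p of 0.0241, Bach1, the competing repressor, differed by -0.23 on the log2 share scale. The small MAF genes Mafg (-0.18), Mafk (-0.13) and Maff (0.13) did not pass, and Maff differed in direction from Mafg and Mafk. Bach1 measured 0.710 and 0.738 FPK against 1.32 and 1.42 FPK, so that it too was higher per cell in both high-MYC libraries.

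In the glutathione group 10 of 11 genes were tested, and 7 of 10 rose at least 2-fold on the spike-in scale. Gsta4, a glutathione transferase that acts on lipid aldehydes, rose in share from 2.70 and 2.91 ppm to 4.599 and 4.66 ppm (0.57 on the log2 share scale, SE 0.0457, adjusted p = 0.00935 from limma). Slc3a2, the partner chain of the cystine importer, took 77.5 and 74.4 ppm in low-MYC and 57.3 and 54.5 ppm in high-MYC cells. That difference of -0.44 on the log2 share scale missed the threshold (adjusted p = 0.0125), as did Ggct at -0.30 (adjusted p = 0.0193) and Gpx1, a glutathione peroxidase, at 0.49 (adjusted p = 0.0162). The shares of both chains of the importer, Slc7a11 and Slc3a2, were lower in both high-MYC libraries than in either low-MYC library.

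In the thioredoxin and peroxiredoxin group 9 of 10 genes were tested, and 9 of 9 rose at least 2-fold on the spike-in scale, against 55.1% of all tested genes. The group's median was 1.14 on the log2 spike-in scale, against 1.03 for all tested genes. On the log2 share scale it was 0.003, against 0.009. In share 0 of 9 passed an adjusted p under 0.01 by limma, and 3 were higher and 2 lower at an unadjusted p under 0.05, against 18.7% and 12.9% of all tested genes. Prdx1, a peroxidase whose over-oxidized form sulfiredoxin repairs, took 527 and 542 ppm against 688 and 708 ppm, at 0.39 on the log2 share scale (adjusted p = 0.01004). Prdx5 stood at 0.25 (adjusted p = 0.0393) and Prdx2 at 0.20 (adjusted p = 0.0506). The 2 lower genes were Prdx6 at -0.10 (adjusted p = 0.0921 from limma) and Txn1 at -0.08 (adjusted p = 0.145). Prdx1 and Srxn1 thus differed in opposite directions in share, with no overlap between the groups in either gene.

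All 6 genes of NADPH supply were tested, 4 rose at least 2-fold on the spike-in scale and 0 of 6 changed in share by limma at an adjusted p under 0.01 (2 higher and 2 lower at an unadjusted p under 0.05). Idh1 (0.25) and G6pdx (0.22), the entry enzyme of the pentose phosphate pathway, were above 0 on the log2 share scale, and Pgd and Taldo1, later enzymes of that pathway, both stood at -0.21. In the detoxification group 10 of 10 genes were tested and 9 of 10 rose at least 2-fold on the spike-in scale. Aldh3a1, an aldehyde dehydrogenase, rose in share from 1.20 and 1.09 ppm to 3.59 ppm in both high-MYC libraries (1.10 on the log2 share scale, SE 0.05001, adjusted p = 0.00311 from limma). Its FPK was 0.0556 and 0.0525 in low-MYC and 0.369 and 0.392 in high-MYC cells. It thus passed the filter of 0.1 only through the group where it was high, and its test was not free of that selection. Akr1b3 (0.32), Ephx1 (0.30) and Osgin1 (-0.28) did not pass on that scale.

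In the heme and iron group 5 of 6 genes were tested, and 3 of 5 rose at least 2-fold on the spike-in scale. Hmox1 measured 25.3 FPK in both low-MYC libraries and 18.5 FPK in both high-MYC libraries, so it fell by 0.45 on the log2 spike-in scale too (adjusted p = 8.28e-05 from limma). Its share was 545 and 524 ppm against 180 and 169 ppm, a fall of 1.61 on the log2 share scale (SE 0.0441, adjusted p = 0.00168 from limma), and no tested gene had a lower value. The biliverdin reductase gene Blvrb (0.18) and the ferritin light chain gene Ftl1 (-0.14) did not pass.

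**Figure D3:**
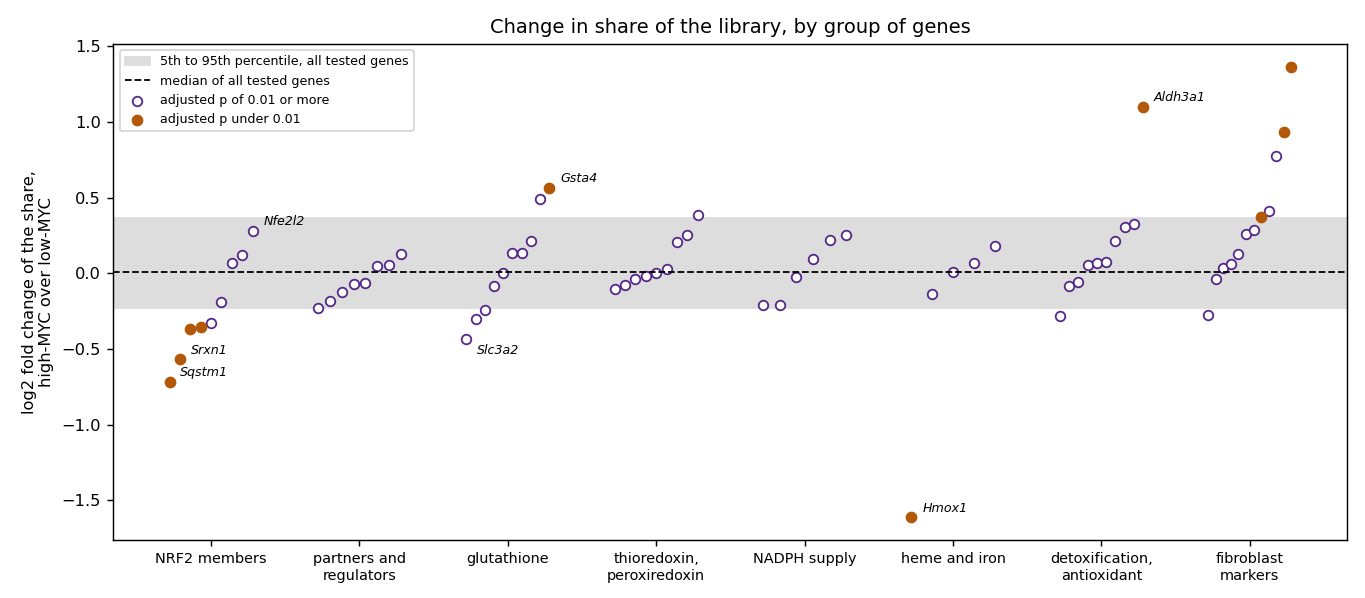
Log2 fold change of the share of the library, high-MYC over low-MYC (y axis), for the tested genes of the NRF2 members, 6 other groups of the pathway and fibroblast markers, with 1 point per gene and genes sorted within a group. Filled points have an adjusted p under 0.01 from limma, the grey band holds the middle 90% of all 11870 tested genes and the dashed line is their median. Among the members 4 filled points lie below the band, and Hmox1 lies lowest of all at -1.61.

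The deposited TACh-seq table lists 4881417 reads. No column assigns a read to a library, the labels of all 4 TACh-seq samples point to this 1 table, and the name of the table reads as that of a wild-type library, so which libraries the reads come from is not settled. It describes chromatin of MEFs without a comparison of wild-type cells with Fubp1 knockout cells given Fubp2 siRNA, and it holds reads in limited regions only. Reads within 500 bp of a RefSeq start site were counted for the 8 members with one in the table. All 8 had reads at a start site, against 89.0% of 8174 expressed coding genes and 34.2% of coding genes that did not pass the filter. The median of the expressed genes was 119 reads.

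Nfe2l2 had 262 reads, more than 90.3% of expressed coding genes, and they covered the start site next to the promoter printed above. Nqo1 had 210 reads (more than 81.99%), Srxn1 197 (78.9%) and Sqstm1 138 (58.9%). Gclm had 92 (35.3%), Slc7a11 68 (21.1%) and Keap1 64 (19.1%). Of the 3 annotated starts of Txnrd1, the second had 263 reads, the third 61 and the first 0, and the second is the start whose promoter held the element. Members with a larger rise in RNA were found at both ends of this order, since Nfe2l2 and Nqo1 stood near the top and Keap1 near the bottom. The cells differ, since the RNA came from sorted cells treated with MG-132, and neither is given for the TACh-seq samples.

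**Figure D4:**
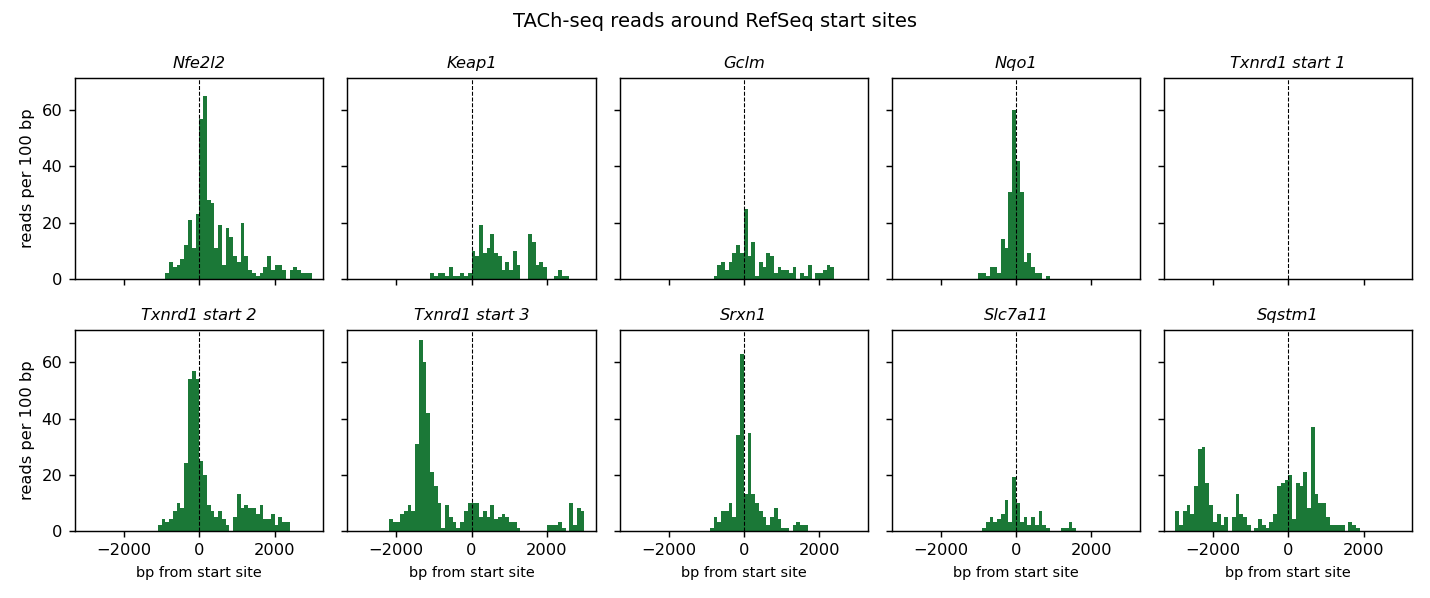
TACh-seq reads per 100 bp (y axis) by distance from each RefSeq start site in bp (x axis, negative values upstream), for 8 members with the 3 starts of Txnrd1 apart. Reads come from the 1 deposited table, whose columns assign no read to a library, and are shown on 1 common scale. Nfe2l2, Nqo1, the second start of Txnrd1 and Srxn1 have their densest bins close to the start, and the first start of Txnrd1 has no reads.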

How the data were processed

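RNA-seq was read from 4 libraries, 2 technical replicates each of low-MYC and high-MYC MEFs, grouped by the sample labels. The authors trimmed bases of quality below 20 from the 3′ end, mapped reads with TopHat on mouse transcripts of build mm10, assigned them to genes with the Partek E/M algorithm, and divided by length and by a score from 10 ERCC transcripts. The versions are not given in the sources used here. The deposited values are this normalized signal (FPK). Multiplied by gene span, 64.9% to 68.1% of values under 50 estimated reads were whole within 0.02, against 14.4% to 14.7% with exon length, so the length used appears to be the span. Reads were therefore estimated, and no count model was used because many values were not whole. Deposited TACh-seq reads carry a mapping score, not used here, and the authors aligned TACh-seq and ChIP-seq reads with Bowtie2 and called peaks with SICER.

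Log2(FPK + 0.1) and log2(ppm + 1) were compared with limma 3.58.1 (lmFit, eBayes with trend) in R 4.3.3, keeping genes whose 4 values averaged 0.1 FPK or more, with Benjamini-Hochberg adjustment over 11870 genes. Fold changes on these scales understate changes of low genes. Genes were called at an adjusted p under 0.01, with a fold of at least 2 on the spike-in scale. The fit on the spike-in scale was tested on simulated data in which few genes changed. In the data nearly every gene was higher, so that simulation does not cover this setting, and the share scale was not simulated. The members and gene lists were chosen with earlier results of these data known. All members were named, and in each other group the 2 to 4 tested genes with the largest change in share and any of differing direction, with others named for a role beside a member. Exon lengths are the combined length of all exons of a gene in GENCODE M21 (19556 genes matched). Dividing by them, and the share of estimated reads, were alternatives chosen after seeing the data. Other alternatives covered pseudocount, filter, scaling, trend, replicate block, thresholds and each library left out. Python 3.11.15 with pandas 2.3.3 was used for the other steps.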

Additional observations from a re-analysis of the deposited data

How the results depend on the processing

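With 2 libraries per group, 1 library left out leaves a lone sample assumed to vary like the others, and fewer residual degrees of freedom. On the spike-in scale the number of genes called, 6540, became 10076 with a pseudocount of 0.01 FPK, 1448 with 1 FPK, 10429 by exon length, 11533 at any fold, and 5683 to 7375 without a library. Members called, 3 of 9, became 1 of 9 with 1 FPK (1448 of 11870 genes). They became 9 of 9 at any fold (11533 of 11870 genes). Scaling the libraries to a common median moved the median of all genes from 1.03 to -0.0039 on the log2 scale. There 71 genes (65 higher, 6 lower) and 0 members were called by limma at a 2-fold change (1 member higher and 6 lower at an unadjusted p under 0.05, against 17.3% and 15.8% of all genes), and Sqstm1 (-0.73), Srxn1 (-0.58), Txnrd1 (-0.38), Gclm (-0.37), Gclc (-0.33) and Gsr (-0.19) reversed. On the share scale the 274 genes called became 80 with no filter, 1384 at an adjusted p under 0.05, 1266 by exon length, 2897 as shares of estimated reads, and 0 to 61 without a library. Members called, 4 of 9 (274 of 11870 genes), became 1 of 10 with no filter (80 of 19769 genes). They became 2 of 9 with no trend (236 of 11870 genes) and 7 of 9 at 0.05 (1384 of 11870 genes). By exon length 8 of 10 were called (1266 of 14353 genes), and as shares of estimated reads 8 of 10 (2897 of 16449 genes). Whether libraries of the same replicate number belong together is not stated. The correlation of same-numbered deviations was 0.0810 on the spike-in and 0.0707 on the share scale, which does not settle it. With the replicate block 0 genes and 0 members were called on the share scale by limma (2553 genes higher and 1744 lower, and 2 members higher and 6 lower, at an unadjusted p under 0.05). On the spike-in scale 6556 genes were called with that block. Of 110 alternative values of single members on the share scale, 78 kept their side of the threshold, 26 lost it, 6 gained it and none reversed. Of 100 on the spike-in scale, 89 kept it, 5 lost it and 6 reversed. The causes were not tested beyond what each setting's construction shows.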

Other observations

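The 3 tested genes whose deposited FPK lay closest to that of Nfe2l2, by Euclidean distance over log2(FPK + 0.1) of the 4 libraries, were Gstm2 (distance 0.0712), a glutathione transferase, Ccne1 (0.0824), which encodes cyclin E1, and Ccdc9b (0.106). The deposited FPK appears to be divided by gene span, so this closeness does not compare levels per exon length. Gstm2 measured 1.73 and 1.79 FPK in low-MYC and 4.75 and 4.84 FPK in high-MYC cells.

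The deposited FUBP1 peaks, 166 in number, all lay on chromosome 15, where none of the 10 members lies, so FUBP1 at the members could not be read from them. The 3 other pathway genes on that chromosome, Txn2, Rbx1 and Maff, overlapped no peak, and the nearest peaks were 71247, 99096 and 113325 bp away.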
